A study of Homo sapiens with 9 samples.

Results

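YAP1 and WWTR1 (the gene of TAZ), their DNA-binding partners TEAD1 and TEAD4, and 6 of their target genes (CCN1, CCN2, ANKRD1, AMOTL2, AJUBA and LATS2) were followed across all 9 libraries. They were taken by symbol, with CYR61 and CTGF as the older names of CCN1 and CCN2. All 10 were found among the 58395 genes of the count files, and all 10 were among the 16575 genes that passed the filter on low counts and were tested. The cells were MDA-MB-231, an established human line of triple-negative breast cancer, grown in DMEM with serum and collected 96 h after reverse transfection with siRNA. The groups were a nontargeting control siRNA (NC), a first siRNA against SKP2 (SKP2-1) and a second one (SKP2-2), with 3 libraries each. The line carries a loss-of-function mutation of NF2, the gene of the Hippo regulator Merlin, as background known from other work and not read from these data.

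YAP and TAZ are coactivators that shuttle between cytoplasm and nucleus. The Hippo kinases MST1 and MST2 activate LATS1 and LATS2, which phosphorylate YAP and TAZ and so keep them in the cytoplasm or send them to degradation. In the nucleus YAP and TAZ bind TEAD factors and raise transcription of genes such as CCN1, CCN2 and ANKRD1, and of LATS2 and AMOTL2, which act back on the pathway as inhibitors. The values below are mRNA levels, so the phosphorylation, location and amount of the proteins were not measured.

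Gene counts ranged from 35.5 to 49.9 M per library. SKP2, the F-box subunit of a ubiquitin ligase and the gene named by the title and labels, was at 57.5 to 64.9 CPM (counts scaled by library size and TMM factor) in NC, 3.31 to 3.91 with SKP2-1 and 5.69 to 6.11 with SKP2-2. The design text names ZIP7 (SLC39A7) instead, which was at 335 to 352, 342 to 344 and 358 to 376 CPM. Markers of mesenchymal-type cells (VIM, CD44, ZEB1, AXL and CAV1) summed to 5496 to 5611 CPM in NC, 5219 to 5292 with SKP2-1 and 5952 to 6265 with SKP2-2. Sums of 5 luminal or epithelial markers were 24.3 to 24.5, 20.02 to 22.6 and 15.3 to 19.6 CPM, with ESR1 at 0.04 to 0.22 CPM by group. The groups did not overlap in either sum, but the markers within a sum did not move together. CDH1 (E-cadherin) was at 12.4 CPM in NC, 8.15 with SKP2-1 and 3.89 with SKP2-2, 3.19-fold below NC with the latter (edgeR adjusted p = 2.46e-08). GATA3, of the same list, was at 11.2, 12.1 and 12.9 CPM and passed in no comparison. With SKP2-1, AXL (1398 to 630 CPM) and CAV1 (538 to 489 CPM) fell and CD44 rose (764 to 1170 CPM), while VIM and ZEB1 did not pass. Sums of 4 immune markers were 0.464 to 0.571 CPM in NC, 1.085 to 1.15 with SKP2-1 and 0.794 to 1.04 with SKP2-2, with CD3E at 0 in NC. Sums of 3 endothelial markers were 3.79 to 4.27, 8.64 to 10.2 and 3.40 to 4.35 CPM, and of 3 fibroblast markers 6.92 to 8.63, 9.91 to 10.8 and 7.94 to 9.25 CPM. CDH5 was at 0 in NC and DCN at 0 with SKP2-2. Whether these differences bear on the values below was not tested. On the third principal component, with 11.3% of the variance, NC replicate 1 (-23.5) and SKP2-2 replicate 3 (-11.6) lay on one side, and NC replicate 3 (16.1) and SKP2-2 replicate 1 (17.3) on the other. Nothing in the labels states that replicates are separate cultures. A p-value here therefore covers only the variation among these libraries, part of which may be technical.

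The members responded differently to the 2 siRNAs. With SKP2-1, 1 of the 10 rose (YAP1) and 4 fell (WWTR1, CCN1, AJUBA and LATS2), while over all genes tested 25.0% rose and 20.5% fell, 45.5% together. With SKP2-2, 2 rose (WWTR1 and AJUBA) and 6 fell (YAP1, TEAD1, CCN1, CCN2, ANKRD1 and LATS2), against 25.2% and 24.1% of all genes, 49.4% together. Between the siRNAs, 5 were higher with SKP2-2 and 4 were lower, against 25.2% and 25.3% of all genes, 50.5% together. AMOTL2 was the member that passed in none of these comparisons. The median log2 fold change of the members was -0.22 with SKP2-1 and -0.26 with SKP2-2, against 0.02 and 0.03 over all genes. The median size of the difference between the siRNAs was 0.66 for the members and 0.30 for all genes. Against NC, the median size of the change with SKP2-1 was 0.22 for the members and 0.26 for all genes. With SKP2-2 it was 0.38 and 0.29. Each siRNA was compared with the same NC libraries, so both sets of changes share their controls.

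**Figure D1:**
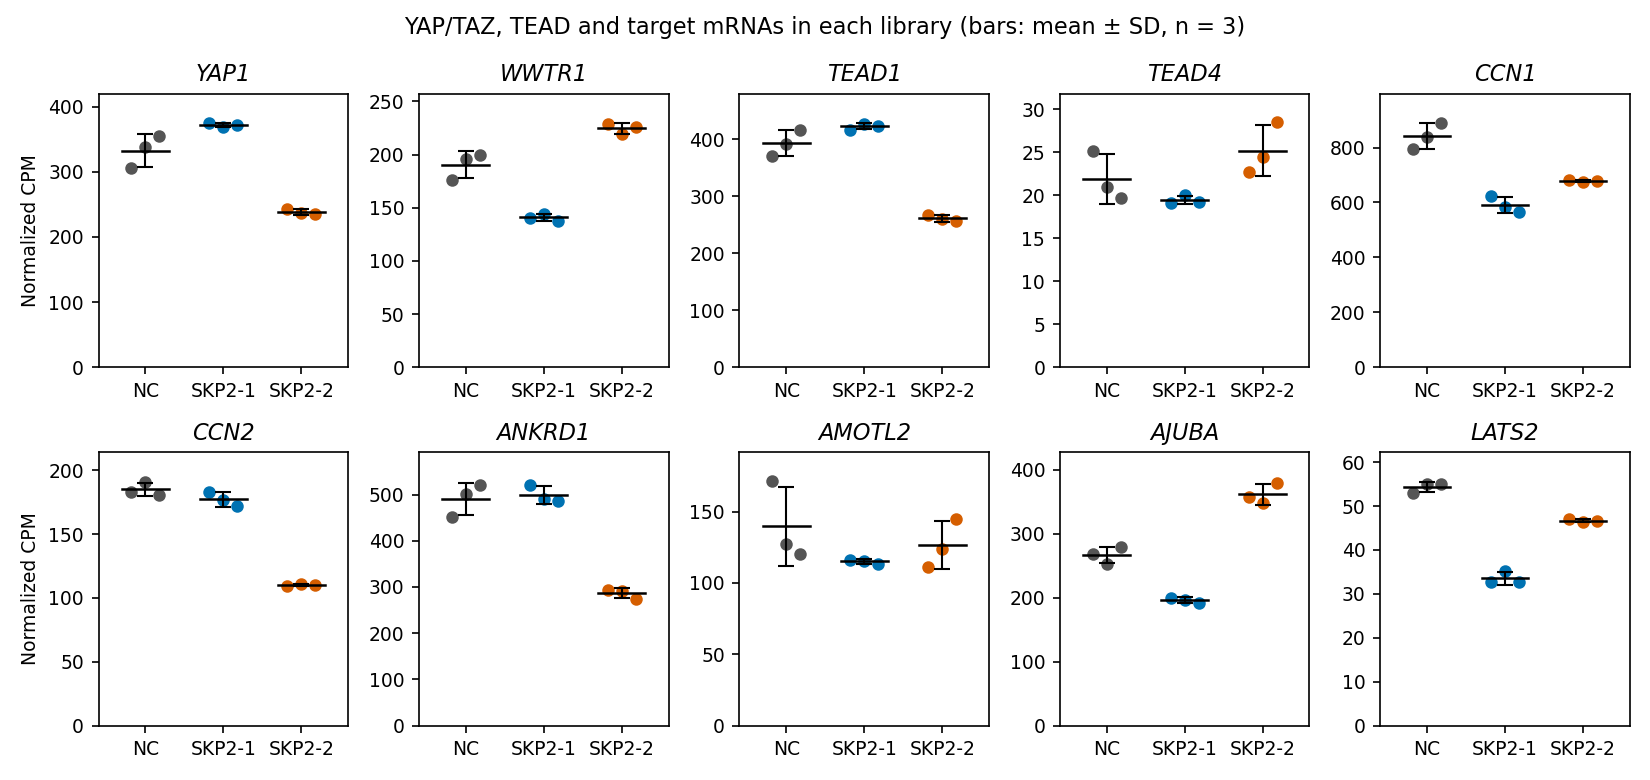
Normalized CPM (vertical axes, from 0) of the 10 genes in NC, SKP2-1 and SKP2-2, with 1 point per library in the order of replicates 1 to 3, and the mean ± SD of 3 libraries as black lines. CCN2, ANKRD1, YAP1 and TEAD1 are low in the SKP2-2 libraries, WWTR1, AJUBA and LATS2 are lowest in the SKP2-1 libraries, and AMOTL2 spreads from 120 to 171 CPM within NC.

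The coactivator genes moved in opposite directions. YAP1 (ENSG00000137693, chromosome 11, 102110461 to 102233423, GRCh38) was at 306, 338 and 354 CPM in NC replicates 1 to 3, 375, 369 and 372 CPM with SKP2-1, and 244, 237 and 235 CPM with SKP2-2. The SKP2-2 libraries were all below NC, by 1.39-fold (log2 fold change -0.48, SE 0.05, adjusted p = 5.44e-06). The SKP2-1 libraries were all above NC, by 1.12-fold (0.16, SE 0.05, adjusted p = 0.0211). That small rise lost its call without NC replicate 1 (0.09, adjusted p = 0.0724) and without any of SKP2-1 replicates 1, 2 and 3 (adjusted p = 0.0668, 0.0529 and 0.0626), and when only NC and SKP2-1 were fitted (0.10, adjusted p = 0.0584). In bulk RNA, fewer cells that express a gene and less of its RNA in each cell cannot be told apart.

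WWTR1 (ENSG00000018408, chromosome 3, 149517235 to 149736714), which encodes TAZ, the paralog of YAP, was at 176, 196 and 199.8 CPM in NC. It was at 141, 145 and 137 CPM with SKP2-1, 1.35-fold below NC (-0.44, SE 0.05, adjusted p = 1.26e-05), and at 229, 219 and 226 CPM with SKP2-2, 1.18-fold above (0.24, SE 0.05, adjusted p = 0.00171). The 3 groups did not overlap. Between the siRNAs, WWTR1 was 1.59-fold higher with SKP2-2 (adjusted p = 1.79e-07) and YAP1 was 1.56-fold lower (adjusted p = 3.38e-07).

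The balance between the 2 coactivator mRNAs therefore shifted. Divided by merged exon length, which puts genes on a common scale, WWTR1 was at 0.431, 0.435 and 0.422 of YAP1 in NC, 0.281, 0.293 and 0.276 with SKP2-1, and 0.703, 0.692 and 0.720 with SKP2-2. These ratios within a library do not depend on scaling between libraries, and the groups lay apart on both sides of NC, by more than the SD of 0.00657 to 0.0141 within a group. YAP1 stayed the more abundant of the pair per length in every library.

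**Figure D2:**
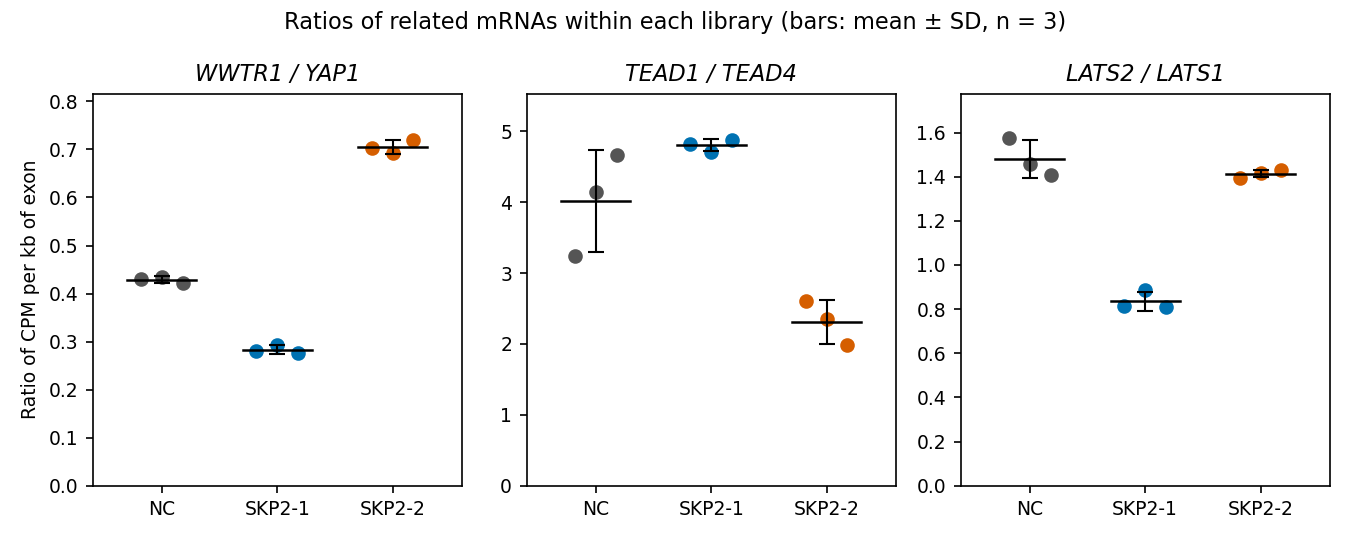
Ratios within each library of CPM per kb of merged exon (vertical axes, from 0) for WWTR1 over YAP1, TEAD1 over TEAD4 and LATS2 over LATS1, with 1 point per library and the mean ± SD of 3 libraries as black lines. WWTR1 over YAP1 is 0.283 on average with SKP2-1, 0.429 in NC and 0.705 with SKP2-2.

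TEAD factors bind DNA through their TEA domain and need a coactivator such as YAP or TAZ to activate transcription. TEAD1 (ENSG00000187079, chromosome 11, 12674591 to 12944483) was at 370, 392 and 416 CPM in NC, 417, 427 and 423 CPM with SKP2-1, and 268, 259 and 256 CPM with SKP2-2. It fell 1.51-fold with SKP2-2 (-0.59, SE 0.05, adjusted p = 3.66e-07), with all 3 libraries below NC. With SKP2-1 the difference did not pass (0.11, SE 0.05, adjusted p = 0.091), although the libraries lay just above NC, and it passed without NC replicate 3 (0.15, adjusted p = 0.0124).

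TEAD4 (ENSG00000197905, chromosome 12, 2959330 to 3040673) was at 25.2, 20.9 and 19.7 CPM in NC, 19.1, 20.02 and 19.2 CPM with SKP2-1, and 22.7, 24.4 and 28.5 CPM with SKP2-2. Both groups overlapped NC, and neither comparison passed (-0.17, SE 0.10, adjusted p = 0.184, and 0.20, SE 0.10, adjusted p = 0.111). Without NC replicate 1, the highest NC library for TEAD4, the difference with SKP2-2 was 0.30 and passed (adjusted p = 0.00502). Between the siRNAs TEAD4 was 1.30-fold higher with SKP2-2 (0.37, SE 0.10, adjusted p = 0.00736), and the groups did not overlap. Per length, TEAD1 was 3.25 to 4.67 times TEAD4 in NC, 4.71 to 4.88 times with SKP2-1 and 1.98 to 2.61 times with SKP2-2.

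**Figure D3:**
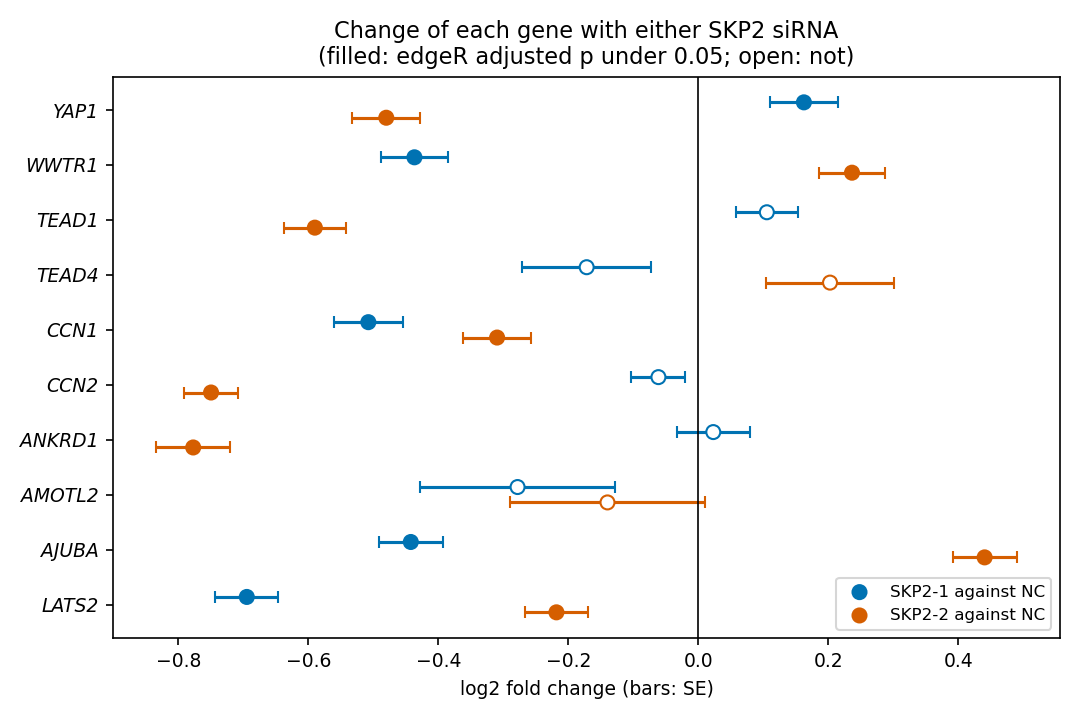
Log2 fold change against NC (horizontal axis, bars: SE) of the 10 genes with SKP2-1 (blue) and SKP2-2 (orange), filled where the edgeR adjusted p was under 0.05. YAP1, WWTR1 and AJUBA pass on opposite sides of 0, CCN1 and LATS2 pass below 0 with both siRNAs, and CCN2, ANKRD1 and TEAD1 pass with SKP2-2 alone.

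Of the target genes most often used to read YAP/TAZ activity, CCN2 and ANKRD1 fell with SKP2-2, while CCN1 fell with both siRNAs. CCN2 and CCN1 encode secreted matricellular proteins, and ANKRD1 an ankyrin-repeat protein of nucleus and sarcomere. CCN2 (ENSG00000118523, chromosome 6, 131948176 to 131951373) was at 183, 191 and 181 CPM in NC, 183, 177 and 172 CPM with SKP2-1, and 109, 111 and 110 CPM with SKP2-2. The fall with SKP2-2 was 1.68-fold (-0.75, SE 0.04, adjusted p = 1.09e-08) with no overlap, whereas SKP2-1 overlapped NC (-0.06, SE 0.04, adjusted p = 0.256). When only NC and SKP2-1 were fitted, the second difference was -0.13 and passed (adjusted p = 0.0382). Between the siRNAs CCN2 differed by -0.69 (SE 0.04, adjusted p = 2.15e-08).

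ANKRD1 (ENSG00000148677, chromosome 10, 90912096 to 90921276) was at 452, 500.3 and 520 CPM in NC, 520, 490.2 and 485 CPM with SKP2-1, and 294, 291 and 274 CPM with SKP2-2. It fell 1.71-fold with SKP2-2 (-0.78, SE 0.06, adjusted p = 1.31e-07), with all 3 libraries below NC. With SKP2-1 its libraries lay within the NC range or, for replicate 1, at its upper edge, and the log2 fold change of 0.02 (SE 0.06, adjusted p = 0.771) was below 0 in several other fits. ANKRD1 differed between the siRNAs by -0.80 (SE 0.06, adjusted p = 8.86e-08).

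CCN1 (ENSG00000142871, chromosome 1, 85580761 to 85583962) had the highest CPM of the members in NC, with 794, 839 and 889.9 CPM in NC. It was at 624, 585 and 566 CPM with SKP2-1, 1.42-fold below NC (-0.51, SE 0.05, adjusted p = 4.06e-06), and at 681, 676 and 679 CPM with SKP2-2, 1.24-fold below (-0.31, SE 0.05, adjusted p = 0.000273). All knockdown libraries were below NC, and SKP2-2 lay above SKP2-1 (0.20, SE 0.05, adjusted p = 0.00674). CCN1 and CCN2, paralogs of 1 family, thus differed in order: per length, CCN1 was 4.13 to 4.69 times CCN2 in NC, 3.14 to 3.25 times with SKP2-1 and 5.83 to 5.93 times with SKP2-2.

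The sequence before the starts of CCN2 and ANKRD1 holds copies of the TEAD core motif, GGAATG. The RefSeq promoter table (GRCh38.p14) had windows for 7 of the 10 members, and CCN1, TEAD1 and TEAD4 had none. The motif was searched on both strands in the 250 bases before each start, where 11.9% of 35116 windows hold at least 1 copy, 0.940% at least 2 and 0.0826% at least 3. CCN2 holds 3 and ANKRD1 holds 2, at 169, 104 and 95 bases and at 220 and 128 bases before the start. The first 3 lie upstream of the gene in GENCODE 29, as does the farther ANKRD1 copy, whereas the nearer one lies in a non-coding part of the longer first exon that GENCODE gives. YAP1 holds 1, upstream of the gene. The stretches below are shown for these 3 genes, 5′ to 3′ on the gene's strand with the motif in capitals.
CCN2, minus strand, chr6:131951423-131951572: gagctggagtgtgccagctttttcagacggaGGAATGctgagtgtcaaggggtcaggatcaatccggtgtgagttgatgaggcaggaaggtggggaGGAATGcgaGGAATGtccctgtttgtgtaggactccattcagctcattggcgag
ANKRD1, minus strand, farther copy, chr10:90921290-90921319: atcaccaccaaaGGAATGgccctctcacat
ANKRD1, minus strand, nearer copy, chr10:90921198-90921227: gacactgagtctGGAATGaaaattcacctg
YAP1, plus strand, chr11:102110273-102110302: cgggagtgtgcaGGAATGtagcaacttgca

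AMOTL2 and AJUBA each hold 1 copy before 1 of their 2 listed starts, at 69 bases (there as the reverse complement CATTCC) and 59 bases, both in non-coding exons of GENCODE 29. No copy lies in the windows of WWTR1 or LATS2. A match is a run of letters, and binding was not measured. Whether a copy bears on the change of any member with either siRNA was not tested.

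The remaining targets also regulate the pathway. LATS2 (ENSG00000150457, chromosome 13, 20973032 to 21061547) encodes a kinase that phosphorylates YAP and TAZ. It was at 53.0, 54.9 and 55.02 CPM in NC, 32.8, 35.2 and 32.7 CPM with SKP2-1, and 47.1, 46.3 and 46.7 CPM with SKP2-2. LATS2 fell 1.62-fold with SKP2-1 (-0.69, SE 0.05, adjusted p = 9.41e-08) and 1.163-fold with SKP2-2 (-0.22, SE 0.05, adjusted p = 0.00193), with no overlap among the groups. Its difference between the siRNAs was 0.48 (SE 0.05, adjusted p = 2.77e-06). Per length, LATS2 was 1.41 to 1.58 times its paralog LATS1 in NC and 1.40 to 1.43 times with SKP2-2, but 0.808 to 0.886 times with SKP2-1.

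AJUBA (ENSG00000129474, chromosome 14, 22971174 to 22982642) encodes a LIM protein that binds LATS kinases and restrains them. It was at 268, 253 and 278 CPM in NC, 199.8, 197 and 191 CPM with SKP2-1, and 357, 347 and 379 CPM with SKP2-2. AJUBA fell 1.36-fold with SKP2-1 (-0.44, SE 0.05, adjusted p = 8.32e-06) and rose 1.36-fold with SKP2-2 (0.44, SE 0.05, adjusted p = 7.24e-06). The groups did not overlap, and the difference of 0.88 between the siRNAs (SE 0.05, adjusted p = 1.05e-08), 1.84-fold, exceeded that of 89.8% of the genes tested.

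AMOTL2 (ENSG00000114019, chromosome 3, 134355874 to 134375479) encodes an angiomotin-family protein that holds YAP at junctions. It was at 171, 127 and 120 CPM in NC, 116, 116 and 113 CPM with SKP2-1, and 111, 124 and 145 CPM with SKP2-2. Its CV was 19.7% in NC, 13.5% with SKP2-2 and 1.38% with SKP2-1, so the NC and SKP2-2 libraries varied most. The high libraries were NC replicate 1 and SKP2-2 replicate 3, which also stood together on the third principal component, and whether that component bears on AMOTL2 was not tested. AMOTL2 passed neither with SKP2-1 (-0.28, SE 0.15, adjusted p = 0.181), where all libraries lay below NC, nor with SKP2-2 (-0.14, SE 0.15, adjusted p = 0.486). The first difference was called by DESeq2 (-0.30, adjusted p = 0.0338) and without both of those libraries (-0.12, adjusted p = 0.0333). The second was 0.02 without NC replicate 1 (adjusted p = 0.868).

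Per length, the order of the members in NC was CCN1 (343 CPM per kb), ANKRD1 (248), CCN2 (79.0), YAP1 (52.8), AJUBA (44.5), TEAD1 (38.2), AMOTL2 (23.3), WWTR1 (22.7), LATS2 (9.74) and TEAD4 (9.65). The libraries of AMOTL2 and WWTR1 overlapped in this order, as did those of LATS2 and TEAD4. With SKP2-1, ANKRD1 (252) and CCN1 (241) overlapped at the top. With SKP2-2, AJUBA (60.4) lay above CCN2 (47.0) and YAP1 (37.9), and WWTR1 (26.7) just above TEAD1 (25.4). Merged exons include rare isoforms, so these levels are approximate. Exons of 5 members overlap exons of another gene, which had at most 48 counts over all libraries where the members had at least 49300, and the strand setting of the counting is not given.

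Other genes of the Hippo pathway were counted from a list of 26, of which 23 were tested. With SKP2-1, 11 rose and 6 fell, a median log2 fold change of 0.14, and with SKP2-2, 10 rose and 6 fell, a median of 0.14. Of all genes tested, 25.0% rose and 20.5% fell with SKP2-1 and 25.2% rose and 24.1% fell with SKP2-2, with medians of 0.02 and 0.03. The median size of the change, without its sign, was 0.18 with SKP2-1 and 0.29 with SKP2-2. Over all genes it was 0.26 and 0.29, so by this median the pathway genes did not change by more than other genes. The share of them called was nevertheless larger with either siRNA than the 45.5% and 49.4% of all genes. These sizes were not adjusted for differences in SE between genes. Without SKP2-1 replicate 1 the first count of falls was 3. Of the 6 genes of the core kinases and their cofactors, 2 rose and 3 fell with each siRNA, but these were not all the same genes. MOB1A, a LATS cofactor, fell by 0.81 on the log2 scale with SKP2-1 (276 to 157 CPM, adjusted p = 1.19e-08) and by 0.32 with SKP2-2 (222 CPM). Its paralog MOB1B fell by 0.55 with SKP2-2 (99.2 to 67.6 CPM, adjusted p = 3.15e-07) and rose by 0.18 with SKP2-1 (113 CPM, adjusted p = 0.00402). VGLL3, a TEAD cofactor, rose with both, by 0.63 and 0.56 (29.1 CPM in NC, 44.9 and 43.0 CPM), and VGLL4, which competes with YAP for TEADs, rose by 0.41 with SKP2-1 (54.0 to 71.9 CPM).

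Upstream of the core, MAP4K4, a kinase that can act on LATS, rose by 0.50 with SKP2-1 (752 to 1060.0 CPM) and fell by 0.32 with SKP2-2 (604 CPM), a difference of -0.81 (adjusted p = 5.27e-08). WWC1 (KIBRA), a scaffold of the kinases, fell by 0.79 with SKP2-2 (168 to 97.1 CPM, adjusted p = 6.71e-09) and by 0.20 with SKP2-1 (145 CPM). LIMD1, a LIM protein of the same family as AJUBA, rose by 0.59 with SKP2-2 (119 to 180 CPM, adjusted p = 1.27e-07). With SKP2-1 LIMD1 fell by 0.14 (108 CPM, adjusted p = 0.0152). TEAD3 rose by 0.61 with SKP2-2 (56.9 to 86.7 CPM, adjusted p = 1.13e-06), where TEAD1 fell. AMOTL1, the paralog of AMOTL2, differed by -0.72 between the siRNAs (187 CPM with SKP2-1 and 114 CPM with SKP2-2, adjusted p = 2.2e-08).

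Another 22 reported YAP/TAZ targets, 17 of them from a published signature that also holds CCN1, CCN2, ANKRD1, AMOTL2 and LATS2, were all tested. With SKP2-1, 12 rose and 3 fell (median 0.16), and with SKP2-2, 6 rose and 8 fell (median -0.09). Between the siRNAs, 7 were higher with SKP2-2 and 12 lower (median -0.19). The shares of all genes were 25.0% higher and 20.5% lower with SKP2-1, 25.2% and 24.1% with SKP2-2, and 25.2% and 25.3% between the siRNAs, with medians of 0.02, 0.03 and 0.03. In the same order, the median size of the change was 0.20, 0.26 and 0.51 for these targets and 0.26, 0.29 and 0.30 for all genes. BIRC5, which encodes survivin and is also a gene of mitosis, fell by 1.98 with SKP2-1 (169 to 43.1 CPM, adjusted p = 3.93e-11). With SKP2-2 BIRC5 fell by 0.17 (151 CPM, adjusted p = 0.0144). AXL, a receptor tyrosine kinase, fell by 1.15 with SKP2-1 (1398 to 630 CPM, adjusted p = 3.83e-10) and was at 1311 CPM with SKP2-2.

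The EGF receptor ligand AREG rose by 0.94 with SKP2-1 (66.2 to 127 CPM, adjusted p = 1.15e-07). IGFBP3, a binding protein of insulin-like growth factors, rose by 0.74 with SKP2-1 (35.8 to 60.0 CPM) and fell by 0.47 with SKP2-2 (25.95 CPM). With SKP2-2, PTPN14, a phosphatase that binds YAP, fell by 0.52 (797 to 557 CPM) and thrombospondin THBS1 by 0.48 (1827 to 1310 CPM). THBS1 rose by 0.26 with SKP2-1 (2193 CPM, adjusted p = 0.000224). FJX1 rose by 0.70 with SKP2-2 (35.5 to 57.5 CPM, adjusted p = 1.03e-07) and by 0.23 with SKP2-1 (41.6 CPM, adjusted p = 0.00195). Of the 22 targets, 12 rose and 3 fell with SKP2-1, against 25.0% and 20.5% of all genes tested. With SKP2-2, 6 rose and 8 fell, against 25.2% and 24.1%. Neither siRNA thus moved all of them in the same direction.

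**Figure D4:**
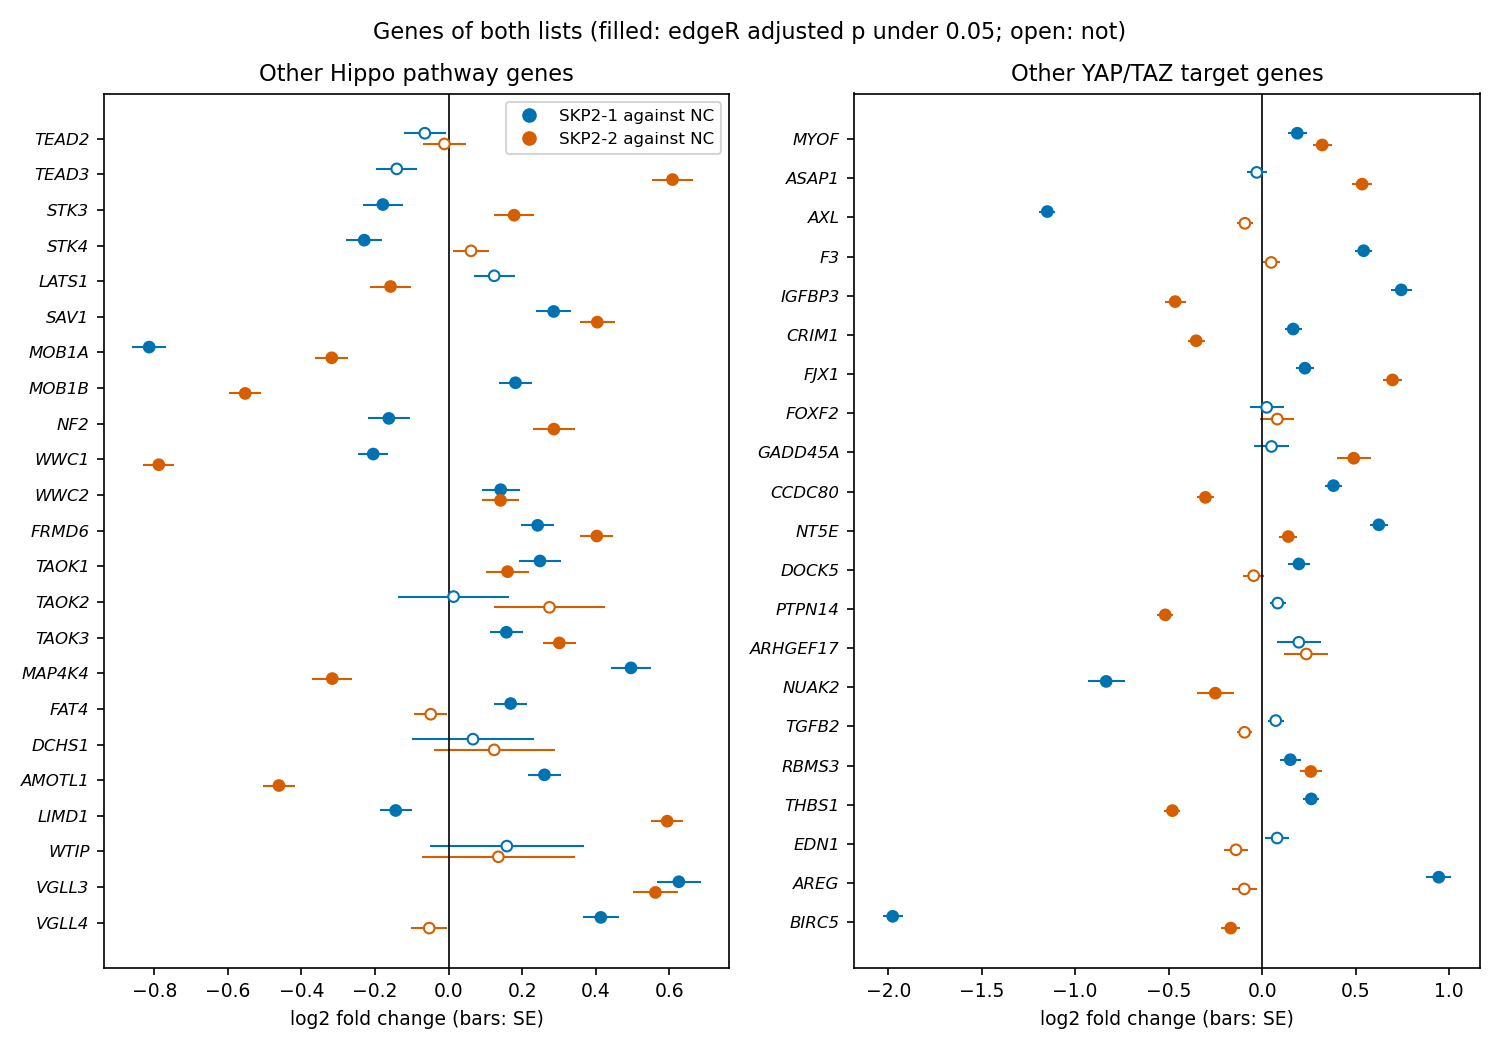
Log2 fold change against NC (horizontal axes, bars: SE) of the 23 tested Hippo pathway genes (left) and other YAP/TAZ targets (right) with SKP2-1 (blue) and SKP2-2 (orange), filled where the edgeR adjusted p was under 0.05. MOB1A, WWC1, VGLL3, BIRC5 and AXL lie far from 0 with at least 1 siRNA, and points of either siRNA lie on both sides of 0.

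The genes whose levels followed those of the main targets most closely were sought among 12125 tested genes of at least 2 CPM. The measure was the root-mean-square difference in log2 CPM over the 9 libraries, after each gene was centred on its own mean. For CCN2, whose own values lay 0.34 from their mean by this measure, the nearest were UBN1, STARD13 and BLTP2, at 0.04 each. For ANKRD1 (0.38) they were RABL3 (0.03), PRDX6 and TAF2 (both 0.04), and for CCN1 (0.21) they were CCDC82 (0.03), RPAP3 and RAB14 (both 0.04). UBN1, at 121 CPM in NC, 116 with SKP2-1 and 69.3 with SKP2-2, shows the shape of CCN2. These libraries and their scaling are shared by all genes compared.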

How the data were processed

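Each library had its own deposited file of unnormalized read counts, with genes given by Ensembl identifier. The submitters' processing notes list HTSeq 0.6.1, DESeq2 1.16.1, STAR, Trim Galore 0.4.1 and FastQC 0.11.2, without saying how each was set. The STAR version, build, annotation and strand setting are not given in the sources used here. The summary lines for reads outside genes (5.34 to 5.92% per library) or in several genes (3.87 to 3.97%) were left out.

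Symbols came from the supplied name table and, where it had none, from GENCODE 29, which also gave GRCh38 places and merged exon lengths. edgeR 4.0.16 in R 4.3.3 fitted all genes with at least 10 counts by filterByExpr (16575 of 58395), with TMM scaling, group as the only term and a robust quasi-likelihood model. Tests were two-sided F tests, Benjamini-Hochberg adjusted over all genes tested, with a threshold of 0.05. The fit was run on simulated counts with 200 genes changed and libraries drawn independently. That simulation held no variation shared between libraries and fewer changed genes than were called here, so it does not cover those conditions. Standard errors were obtained as |log2 fold change|/√F.

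The members and gene lists were chosen with earlier results of these data known. All 10 members are named. From each list the genes named are up to 4 with the smallest adjusted p among those called in a comparison, and CCN1, CCN2 and ANKRD1 each have their 3 nearest genes named. Alternatives were RLE scaling, library size only, other filters, DESeq2 1.42.0, a replicate block, fits of only the groups compared and fits without single libraries. Some genes of the lists are counted but not reported by name here.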

Additional observations from a re-analysis of the deposited data

Results flagged for a closer look

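For 9 of the 10 members the change with SKP2-2 differed from that with SKP2-1 by the edgeR test between the siRNAs. The log2 difference, SKP2-2 minus SKP2-1, was 0.88 for AJUBA, 0.67 for WWTR1, 0.48 for LATS2, 0.37 for TEAD4 and 0.20 for CCN1. It was -0.80 for ANKRD1, -0.70 for TEAD1, -0.69 for CCN2 and -0.64 for YAP1. Of all genes tested, 50.5% passed in this comparison, and the residual SKP2 mRNA itself was 1.66-fold higher with SKP2-2.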

How the results depend on the processing

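Of 30 member values (10 genes in 3 comparisons), 23 kept their direction and side of the threshold in all 17 alternatives. The others were YAP1, TEAD1, CCN2, ANKRD1 and AMOTL2 with SKP2-1, and TEAD4 and AMOTL2 with SKP2-2. The number of members higher with SKP2-1 was 2 with library size only, 0 when only the groups compared were fitted, and 0 to 2 when single libraries were left out. Pathway genes lower with SKP2-1 numbered 3 to 7 over those fits. ANKRD1 with SKP2-1 turned to -0.010 with at least 1 CPM in 3 libraries and to -0.044 with only the groups compared. It was -0.046 to 0.066 without single libraries, and -0.046 without both NC replicate 1 and SKP2-2 replicate 3, an alternative chosen after seeing the data. AMOTL2 with SKP2-2 was -0.25 to 0.020 without single libraries. SLC39A7 with SKP2-1, 0.00 in the fit reported, was -0.014 with RLE scaling, -0.015 with DESeq2, -0.030 with the 1 CPM filter, -0.064 with only the groups compared, -0.015 without both libraries and -0.031 to 0.024 without single ones. No setting moved the median of all genes by more than 0.07. Of 51 values of 17 named list genes, 45 were stable in all alternatives, and the calls of LIMD1 with SKP2-1 and BIRC5 with SKP2-2 were among those lost in some. The nearest genes were not sought again under other settings.

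Same-numbered libraries correlated between -0.712 and 0.0993 in their deviations from group means. Libraries of different number reached 0.716 (NC replicate 1 with SKP2-2 replicate 3) and 0.675 (NC replicate 3 with SKP2-2 replicate 1). No pairing by number was seen, but this strong variation shared by NC and SKP2-2 could hide one. With the replicate block, the counts of members were again 1 higher and 4 lower with SKP2-1 and 2 higher and 6 lower with SKP2-2, and 6818 and 7501 genes were called in all (7548 and 8181 without it). The median SE over all genes was 0.09 on the log2 scale, and those of TEAD1 and YAP1 with SKP2-1 were 0.05 each.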
